A study of Homo sapiens with 4 samples.

Results

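The transcripts described here are the long non-coding host genes of small RNAs, chosen by symbol alone. They are every gene named SNHG and a number (small nucleolar RNA host gene), GAS5, and every gene named MIR, an identifier and HG (microRNA host gene). The rule found 74 of the 27356 genes with a row, 25 hosts of small nucleolar RNAs (snoRNAs) and 49 hosts of microRNAs. In the annotation used for positions (GENCODE 29, build GRCh38), a snoRNA or related small RNA lay inside 23 of the 25 snoRNA hosts and a microRNA inside 47 of the 49 microRNA hosts. Small RNAs whose annotated name begins with RF were not counted, and GAS5 was among the hosts with none counted.

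snoRNAs guide the chemical modification of ribosomal and spliceosomal RNA, and most human snoRNAs are cut out of the introns of a host transcript after splicing. Many of the spliced SNHG transcripts begin with a run of pyrimidines, as the messages of ribosomal proteins do, and several, GAS5 among them, are known to be degraded by nonsense-mediated decay when they are translated. A microRNA host is cut by the DROSHA and DGCR8 proteins, which release the hairpin that becomes the microRNA. A host therefore yields separate products, and the level of the spliced transcript is not the level of the small RNA.

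HaCaT, an immortalised human keratinocyte line, was given phosphate-buffered saline (PBS, 2 libraries) or M5 (2 libraries) at a plating density of 50% and collected after 72 h. M5 is a mixture of 5 cytokines, each at 10 μg/L: Oncostatin M, TNF-α, IL-22, IL-17 and IL-1α. The treatment tag of both M5 libraries instead reads DAC with a dose of 25 μM, and the groups here follow the sample titles, which name M5. Polyadenylated RNA was sequenced, so mature microRNAs and snoRNAs were not measured, and HaCaT stands for keratinocytes as 1 line without the other cells of skin.

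The microRNAs carried by the hosts on which the results below turn are shown 5′ to 3′ from RefSeq (GRCh38.p14), with the seed, bases 2 to 8, in capitals. They show which target-recognition sequence each host could supply.
miR-146a-5p in MIR3142HG: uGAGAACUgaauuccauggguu
miR-210-3p in MIR210HG: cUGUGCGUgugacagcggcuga
miR-34a-5p in MIR34AHG: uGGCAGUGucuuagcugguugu
miR-205-5p in MIR205HG: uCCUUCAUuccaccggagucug
miR-221-3p in MIR222HG: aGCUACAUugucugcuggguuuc
miR-222-3p in MIR222HG: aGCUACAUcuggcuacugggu
miR-195-5p in MIR497HG: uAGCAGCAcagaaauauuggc
miR-497-5p in MIR497HG: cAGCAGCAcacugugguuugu
miR-31-5p in MIR31HG: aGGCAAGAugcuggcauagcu
MIR222HG and MIR497HG each carry a pair of microRNAs with a common seed. The seed GCUACAU of miR-221-3p and miR-222-3p occurred in 2 of the 2545 mature human sequences in the table, and AGCAGCA of miR-195-5p and miR-497-5p in 8.

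For the snoRNA hosts the informative stretch is the start of the transcript. RefSeq promoters (GRCh38.p14) were found for 16 of the 18 snoRNA hosts abundant enough to be tested, and 4 of the 16 (25%) started with C followed by an unbroken run of C or T to at least 5 bases in all. The same start was present in 1104 of all 27305 promoters in the table (4.04%) and in 0 of the 10 tested microRNA hosts. The first 20 bases of those 4 transcripts are shown with the opening pyrimidine run in capitals.
SNHG4: CCCTTTCCCCTCCggcctct
SNHG12: CCTTTCTCCCCgccgcattc
SNHG19: CTTTTCggggtcgagtccga
SNHG18: CTCCTCCTCCTCCTCCTCCC
The runs were 13 bases long in SNHG4, 11 in SNHG12 and 6 in SNHG19, and in SNHG18 the run continued to base 21. A second measure asked for at least 8 C or T in a row between 10 bases before the start and 20 after. It was met by 5 of the 16 snoRNA hosts, 2 of the 10 microRNA hosts (20%) and 12.6% of all promoters. The 5 were SNHG4, SNHG12, SNHG18, SNHG26 and SNHG16, of which SNHG16 was not lowered, and SNHG19 was not among them. A matching start is a description of these letters, and a host without one may begin elsewhere than at the RefSeq start.

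Each library is described by its read count and by FPKM, fragments scaled by gene length and by the library's own total. Totals were 15858644 and 16051974 counts with PBS, and 18992988 and 19749612 with M5. Levels below are the deposited FPKM in the order PBS replicate 1, PBS replicate 2, M5 replicate 1 and M5 replicate 2, unless read counts are named. Changes are log2 fold changes of M5 over PBS from edgeR on the counts with TMM scaling, which corrects for composition, so they are smaller in size than the fall in FPKM. Nothing in the labels tells whether the replicates were grown apart, so each adjusted p rests on differences between libraries that may be technical ones. In bulk RNA, fewer cells with a transcript and less of it per cell cannot be told apart.

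Of the 25 snoRNA hosts, 18 reached a mean of 1 FPKM over the 4 libraries and were tested. M5 lowered 14 of them (edgeR adjusted p under 0.05) and raised 0, where 27.1% of the 10809 tested genes were lower, 28.8% were higher and 55.9% changed in either direction. The median log2 fold change of the 18 was -0.52, with a range of -1.24 to 0.15, against -0.01 over all tested genes. In CPM, counts scaled to a common library size with TMM factors, both M5 libraries were below both PBS libraries for 15 of the 18, which held for 39.4% of all tested genes. The minimum was reached by the PBS mean but not by the M5 mean for 1 tested snoRNA host, SNHG20, which had to be lower in M5 to be so placed. Summed over all 25 snoRNA hosts, the level was 1030 and 999 CPM in the PBS libraries and 727 and 755 CPM in the M5 libraries.

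**Figure D1:**
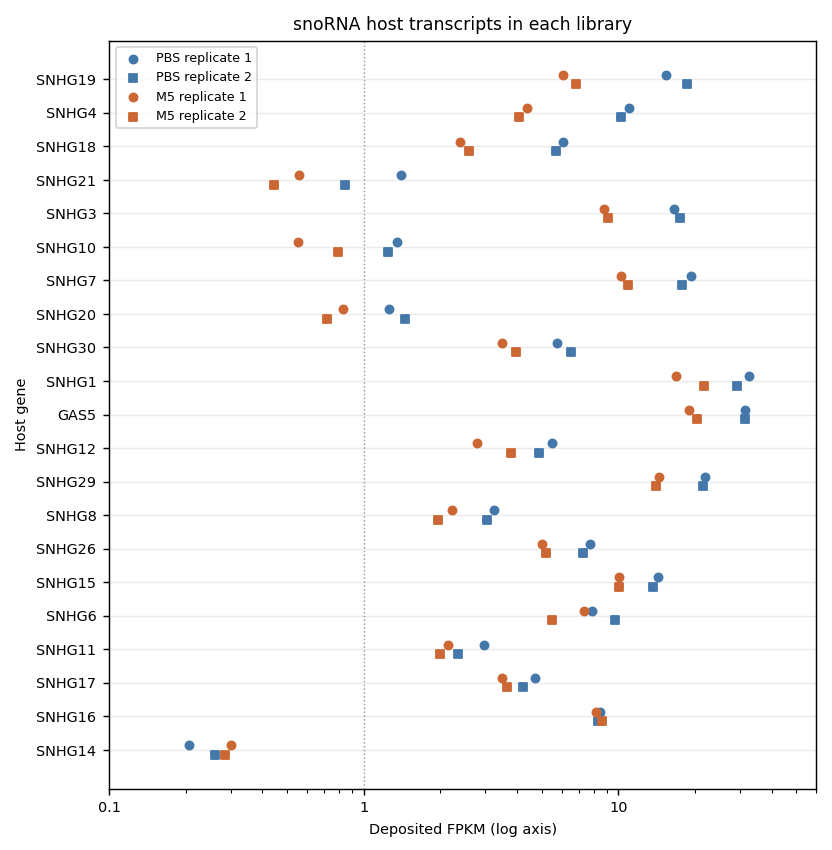
FPKM (log axis) of each tested snoRNA host and of SNHG21, SNHG10 and SNHG14 in the 4 libraries, ordered by change, with circles for replicate 1, squares for replicate 2, and a dotted line at 1 FPKM. M5 libraries (orange) lie left of PBS libraries (blue) in most rows, overlap them for SNHG16, and lie right of them for SNHG14.

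SNHG19, SNHG4 and SNHG18 were lowered most among the tested snoRNA hosts, each more than 2-fold. SNHG19 (chr16:2154797-2155358, minus strand), a short host that carries SNORD60, was at 15.4, 18.7, 6.09 and 6.84 FPKM and changed by -1.24 on the log2 scale (SE 0.20, edgeR adjusted p = 3.26e-05). SNHG4 (chr5:139274102-139284899, plus strand), which carries SNORA74A and SNORA74D, was at 11.1, 10.2, 4.38 and 4.08 FPKM, or -1.18 on the log2 scale (SE 0.10, edgeR adjusted p = 4.89e-09). SNHG18 (chr5:9546200-9550609, plus strand), the host of SNORD123, was at 6.04, 5.67, 2.39 and 2.58 FPKM, or -1.09 on the log2 scale (SE 0.18, edgeR adjusted p = 4.21e-05). The PBS libraries were close to each other for SNHG4 and SNHG18 and further apart for SNHG19 (SD 2.31 FPKM, n = 2). In all 3 hosts the M5 libraries were well below the PBS libraries without overlap. They stood 2.37-fold, 2.26-fold and 2.12-fold lower with M5, and all 3 are among the 4 hosts whose pyrimidine-rich starts are printed above.

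GAS5, SNHG1 and SNHG29, the snoRNA hosts with the highest mean FPKM, fell by 1.37-fold to 1.44-fold. GAS5 (chr1:173863900-173868882, minus strand; ENSG00000234741), named growth arrest specific 5 and known for accumulating when growth stops, was at 31.4, 31.4, 18.998 and 20.4 FPKM, from counts of 2458, 2487, 1780 and 1989. Its PBS libraries were nearly equal and its M5 libraries both lower, 1.44-fold by edgeR (log2 fold change -0.52, SE 0.06, adjusted p = 5.37e-07). SNHG1 (chr11:62851988-62855914, minus strand), with 6 snoRNAs counted inside its span, from SNORD22 to SNORD30, was at 32.5, 29.1, 16.9 and 21.6 FPKM. It fell 1.44-fold too (log2 fold change -0.53, SE 0.09, edgeR adjusted p = 4.17e-05), with a wider gap between its M5 libraries than GAS5. SNHG29 (chr17:16438822-16478678, plus strand), the host of SNORD49A, SNORD49B and SNORD65, was at 21.9, 21.5, 14.4 and 14.1 FPKM and fell 1.37-fold (edgeR adjusted p = 1.39e-06). GAS5 and SNHG1 did not differ in mean PBS level beyond the spread of SNHG1, at 31.4 ± 0.00862 and 30.8 ± 2.37 FPKM (SD, n = 2).

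SNHG3 and SNHG7 lay between these groups in size of change. SNHG3 (chr1:28505980-28510892, plus strand), the host of SNORA73A and SNORA73B, was at 16.5, 17.4, 8.75 and 9.08 FPKM, 1.71-fold lower with M5 (log2 fold change -0.78, SE 0.08, edgeR adjusted p = 5.96e-08). SNHG7 (chr9:136721366-136728184, minus strand), with SNORA17A and SNORA17B, was at 19.4, 17.8, 10.2 and 10.9 FPKM and 1.59-fold lower (log2 fold change -0.67, SE 0.07, edgeR adjusted p = 1.12e-07). Neither host had overlapping groups. Exons of other genes cover 25.2% of SNHG7's exons, and the library kit does not mark strand, so reads of SNHG7 and of its overlapping partner cannot be told apart.

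The other 6 called snoRNA hosts fell 1.26-fold to 1.58-fold. SNHG15, which carries SNORA9, was at 14.4, 13.7, 10.1 and 10.1 FPKM (log2 fold change -0.33, SE 0.08, edgeR adjusted p = 0.00139), and SNHG26, which carries SNORD93, at 7.76, 7.23, 5.00 and 5.22 FPKM (-0.40, SE 0.08, 0.000305). SNHG12, the host of SNORA16A, SNORA44, SNORA61 and SNORD99, was at 5.48, 4.88, 2.78 and 3.77 FPKM (-0.51, SE 0.14, 0.00543). The groups were apart in all 3, with the M5 libraries of SNHG12 less close to each other than those of the other two. SNHG30, the host of SNORD7, was at 5.72, 6.54, 3.48 and 3.97 FPKM (-0.57, SE 0.19, 0.0141). SNHG8, the host of SNORA24, was at 3.24, 3.05, 2.23 and 1.95 FPKM (-0.44, SE 0.13, 0.00735), and SNHG20, which holds SCARNA16, a guide for spliceosomal RNA, at 1.25, 1.45, 0.830 and 0.715 FPKM (-0.66, SE 0.20, 0.01002). These 3 were also lower in each M5 library than in either PBS library. For SNHG12, SNHG30, SNHG8 and SNHG20 the call depended on single libraries: edgeR's adjusted p rose to 0.0734 for SNHG12 without M5 replicate 1 (log2 fold change -0.30), to 0.0581 for SNHG8 without PBS replicate 1, and without PBS replicate 2 to 0.110 for SNHG30 and 0.0805 for SNHG20. It was also 0.0689 for SNHG30 without M5 replicate 1 and 0.0553 for SNHG20 without M5 replicate 2, and 0.0517 for SNHG30 with no filter on level. The other 10 of the 14 called snoRNA hosts had an adjusted p under 0.05 in every fit in which they were tested, those with a library left out included. SNHG18, with a mean FPKM under 5, was not in the fit with that minimum.

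The 4 tested snoRNA hosts that did not pass were SNHG6, SNHG11, SNHG17 and SNHG16. SNHG6 (SNORD87) was at 7.91, 9.74, 7.33 and 5.51 FPKM, with libraries that overlapped in CPM (log2 fold change -0.31, SE 0.14, edgeR adjusted p = 0.0777), and passed without M5 replicate 1 (-0.53, adjusted p = 0.00381) and without PBS replicate 1 (adjusted p = 0.0133). SNHG6 passed as well with library totals (adjusted p = 0.00957) and in limma on log2(FPKM + 1) (0.0497), and not on log2(FPKM + 0.1) (0.0518). SNHG17 (SNORA71A to SNORA71D) was at 4.71, 4.23, 3.49 and 3.67 FPKM (-0.17, SE 0.08, 0.0872), and passed when libraries were scaled by their totals (-0.32, 0.00237) and in limma with either pseudocount (adjusted p = 0.0351 and 0.0344). SNHG11 (SNORA60 and SNORA71E) was at 2.95, 2.35, 2.14 and 1.99 FPKM (-0.21, SE 0.17, 0.303). SNHG16 (chr17:76557766-76565348, plus strand), which holds SNORD1A, SNORD1B and SNORD1C, was the one tested snoRNA host with a positive value. It was at 8.44, 8.32, 8.16 and 8.63 FPKM and at 46.7, 46.1, 50.3 and 53.0 CPM, so that its groups overlapped on the first scale and not on the second, where 37.8% of all tested genes had both M5 libraries above both PBS libraries (log2 fold change 0.15, SE 0.08, edgeR adjusted p = 0.0987). Exons of other genes cover 30.6% of SNHG16's exons and 29.3% of those of SNHG6.

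The 7 snoRNA hosts below the minimum were fitted without a filter on level, where 9.99% of all 27356 genes were lower, 12.4% higher and 22.4% changed. SNHG14 (chr15:24978583-25419462, plus strand), the very long imprinted transcript with 83 snoRNAs counted inside its span, went the other way from the tested hosts. Its counts were 400, 511, 700 and 690, both M5 libraries above both PBS libraries, a 1.42-fold rise (log2 fold change 0.51, SE 0.11, edgeR adjusted p = 0.00667), at only 0.206 to 0.301 FPKM. SNHG21, at 1.40, 0.840, 0.556 and 0.443 FPKM, and SNHG10, at 1.35, 1.25, 0.552 and 0.792 FPKM, each hold a small Cajal body RNA and fell (log2 fold changes -0.99 and -0.77, edgeR adjusted p = 0.0198 and 0.0316). These calls ended with 1 library left out: edgeR's adjusted p was 0.298 for SNHG14 and SNHG21 and 0.216 for SNHG10 without M5 replicate 1, and 0.241 for SNHG14, 0.413 for SNHG21 and 0.0929 for SNHG10 without M5 replicate 2. Without PBS replicate 1 it was 0.193 for SNHG21 and 0.0608 for SNHG10. Limma on log2(FPKM + 1) did not call SNHG14 (adjusted p = 0.502), and exons of other genes cover 72.9% of SNHG21 and 20.1% of SNHG10. Other genes, SNRPN and UBE3A among them, also cover 6.06% of the exons of SNHG14. How many of the reads of SNHG14 came from those genes is unknown. SNHG5 had counts of 33, 43, 25 and 22 and was not called (-0.79, edgeR adjusted p = 0.119). Since the counting of multiply aligned or overlapping reads is not stated, it is unknown whether these low counts measure the full transcript. SNHG5 was one of the 4 snoRNA hosts below 50 counts in each library, along with SNHG22, SNHG31 and SNHG33.

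Of the 49 microRNA hosts, 10 reached the minimum. M5 lowered 5 and raised 0 (edgeR adjusted p under 0.05), beside the 27.1% lower and 28.8% higher among all tested genes. Their median log2 fold change was -0.30, with a range of -0.88 to 0.21, and both M5 libraries were below both PBS libraries in CPM for 5 of the 10 (50%), near the 39.4% of all tested genes. The PBS mean but not the M5 mean reached the minimum for 5 of these 10, of which 2 were called (MIR3936HG and MIR1915HG), so a lower M5 level was in part built into who was tested. Summed over all 49, the level was 317 and 301 CPM in the PBS libraries and 251 and 267 CPM in the M5 libraries. MIR205HG alone made up 182, 180, 148 and 162 CPM of it.

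**Figure D2:**
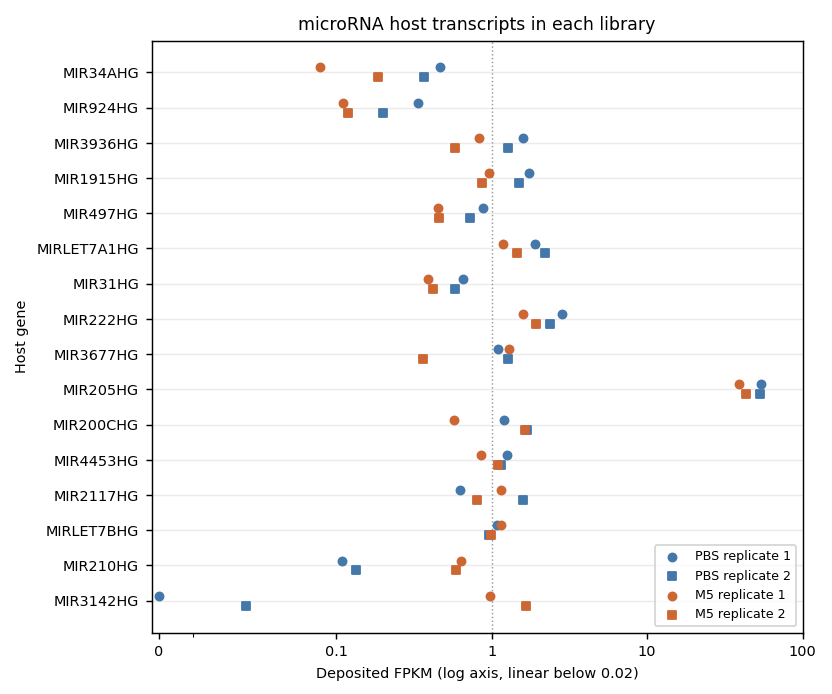
FPKM (log axis, linear below 0.02) of the tested microRNA hosts, of those called without a filter on level and of MIR31HG, with circles for replicate 1, squares for replicate 2 and a dotted line at 1 FPKM. MIR205HG stands apart at 39.3 to 53.9 FPKM, and in the 2 lowest rows the M5 libraries (orange) lie right of the PBS libraries (blue).

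MIR205HG (chr1:209428820-209432838, plus strand), the host of the epithelial microRNA miR-205, had the highest FPKM of all hosts. It was at 53.9, 53.1, 39.3 and 43.1 FPKM, and fell 1.17-fold (log2 fold change -0.22, SE 0.06, edgeR adjusted p = 0.00358), with both M5 libraries below both PBS libraries. MIR3936HG (chr5:132311285-132369916, minus strand) was at 1.59, 1.28, 0.823 and 0.578 FPKM and fell 1.84-fold (-0.88, SE 0.24, edgeR adjusted p = 0.00404). These 2 calls had an adjusted p under 0.05 in every fit in which they were tested. MIR3936HG, though, reached the minimum only through its PBS mean (1.43 FPKM, against 0.701 with M5), so that its M5 level had to be lower, and it was not in the fit with a minimum of 5 FPKM.

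The other 3 called microRNA hosts were lowered with less certainty. MIR1915HG (chr10:21492658-21497262, minus strand), which GENCODE 29 lists as the protein-coding gene CASC10, was at 1.74, 1.49, 0.960 and 0.861 FPKM (log2 fold change -0.67, SE 0.22, edgeR adjusted p = 0.0135). MIR222HG (chrX:45745211-45770274, minus strand), whose seed-sharing pair is printed above, was at 2.85, 2.37, 1.59 and 1.92 FPKM (-0.42, SE 0.16, 0.0287). MIRLET7A1HG, named for a let-7 gene, was at 1.91, 2.19, 1.18 and 1.45 FPKM (-0.49, SE 0.19, 0.0339). Their groups did not overlap. All 3 missed the threshold in DESeq2, with adjusted p = 0.0584 for MIR1915HG, 0.0790 for MIR222HG and 0.0997 for MIRLET7A1HG. Leaving out a library did so too: edgeR's adjusted p was 0.105 for MIR1915HG and 0.279 for MIR222HG without PBS replicate 1, 0.195 for MIRLET7A1HG without PBS replicate 2, 0.156 for MIR222HG and 0.181 for MIRLET7A1HG without M5 replicate 1, and 0.0594 for MIR1915HG without M5 replicate 2. In GENCODE 29, exons of other genes cover 78.7% of MIRLET7A1HG's exons. Its counts come from a longer gene model of 4656 bp, so the share of that length covered is unknown.

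The remaining 5 tested microRNA hosts were not called. MIR3677HG was at 1.09, 1.27, 1.29 and 0.362 FPKM, the low value resting on M5 replicate 2 alone (log2 fold change -0.38, SE 0.52, edgeR adjusted p = 0.563). MIR200CHG, host of the epithelial microRNAs miR-200c and miR-141, was at 1.19, 1.68, 0.569 and 1.64 FPKM (-0.22, SE 0.69, 0.814). MIR2117HG was at 0.623, 1.60, 1.14 and 0.801 FPKM (-0.05, SE 0.65, 0.958). For these 3 the libraries of a group differed more than the groups did. MIR4453HG was at 1.26, 1.14, 0.860 and 1.10 FPKM (-0.14, SE 0.26, 0.664), and MIRLET7BHG, with let-7b and let-7a-3, at 1.08, 0.955, 1.14 and 0.988 FPKM (0.21, SE 0.20, 0.373).

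The 2 microRNA hosts that rose were both near the detection limit in PBS and were found only without the filter on level. MIR3142HG (chr5:160438594-160487426, plus strand) is the host of miR-146a, a microRNA known to be induced by inflammatory signalling through NF-κB and to restrain it. It had counts of 0, 1, 44 and 78, or 0, 0.0262, 0.975 and 1.66 FPKM. The 122 counts in M5 against 1 in PBS gave a ratio of 112 after library scaling, with an exact (Clopper-Pearson) 95% interval of 19.7 to 4443 that covers counting error only (edgeR adjusted p = 3.31e-05). MIR210HG (chr11:565660-568457, minus strand), the host of miR-210, a microRNA known for its response to hypoxia, had counts of 4, 5, 28 and 27 and rose 5.58-fold (log2 fold change 2.48, SE 0.47, edgeR adjusted p = 0.00242). The groups of both hosts were far apart, although the M5 libraries of MIR3142HG differed from each other. With 1 M5 library left out, the adjusted p was 0.0509 or 0.0655 for MIR3142HG and 0.0886 or 0.0778 for MIR210HG.

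The RefSeq promoter of MIR3142HG (GRCh38.p14, chr5:160468001-160468300, plus strand, 250 bases before the start and 50 after) is shown because it belongs to the host with the largest rise. Capitals mark the match to the κB motif (GGGA, any base N, then TTTCC), searched on both strands, which begins at position -120 from the start.
MIR3142HG promoter: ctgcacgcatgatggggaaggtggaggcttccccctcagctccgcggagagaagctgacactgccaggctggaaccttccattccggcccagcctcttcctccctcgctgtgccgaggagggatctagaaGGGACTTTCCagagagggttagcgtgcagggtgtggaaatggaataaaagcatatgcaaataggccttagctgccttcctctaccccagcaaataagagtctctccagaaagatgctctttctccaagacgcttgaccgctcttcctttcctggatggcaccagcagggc
This motif was in 158 of the 27305 promoters of this length (0.579%) and in none of those of the 16 snoRNA hosts and 10 microRNA hosts tested. The RefSeq start lies 29657 bp inside the GENCODE 29 span, so another start may be in use. The short hypoxia-response core ACGTG was present in MIR210HG and MIR34AHG among the called microRNA hosts, and in 21.6% of all promoters. It was also in 4 of the 16 snoRNA hosts tested (25%) and 1 of the 10 microRNA hosts tested (10%). The RefSeq start of MIR34AHG lies 16568 bp inside its GENCODE 29 span. The E-box CACGTG and the STAT motif TTCCNGGAA, also searched, were in no called microRNA host, and in 7.43% and 1.22% of all promoters. A match or its absence says nothing of whether the factor was bound.

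Of the 39 microRNA hosts below the minimum, 3 fell and 2 rose in the fit without a filter, beside the 9.99% lower and 12.4% higher among all genes in that fit, so the share that fell was no higher than the background. MIR34AHG (chr1:9148011-9198906, minus strand) carries miR-34a, a known target of p53, and had counts of 64, 51, 13 and 32 (log2 fold change -1.46, SE 0.37, edgeR adjusted p = 0.0154). Its M5 libraries were both lower than PBS but differed from each other, and the call ended without M5 replicate 1 (-0.97, adjusted p = 0.205) and without M5 replicate 2 (-2.20, 0.0819). MIR497HG (chr17:7015818-7019659, minus strand) had counts of 157, 132, 97 and 103 (-0.63, SE 0.19, 0.0311), with 44.0% of its exons covered by other genes. MIR924HG had counts of 68, 41, 27 and 30 (-1.04, SE 0.32, 0.0398). Neither of these overlapped between groups, yet both calls ended without PBS replicate 1 (edgeR adjusted p = 0.225 for MIR497HG and 0.392 for MIR924HG) and without either M5 library (0.225 or 0.236 for MIR497HG, 0.347 or 0.376 for MIR924HG).

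MIR31HG (chr9:21455642-21559669, minus strand; ENSG00000171889), the host of miR-31, had counts of 173, 154, 122 and 138, or 0.658, 0.578, 0.387 and 0.421 FPKM. Both M5 libraries were below both PBS libraries, yet the difference did not pass the test (log2 fold change -0.43, SE 0.17, edgeR adjusted p = 0.103). It passed when libraries were scaled by their totals (-0.61, adjusted p = 0.0165), and in none of the other settings run. Exons of other genes cover 40.7% of it.

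MIR31HG was one of 34 microRNA hosts below the minimum that were not called, and the others gave little to compare. MIR17HG, which carries the miR-17 to miR-92a cluster, had counts of 207, 166, 160 and 184 (log2 fold change -0.22, edgeR adjusted p = 0.476). MIR100HG, host of miR-100, let-7a-2 and miR-125b-1, had counts of 317, 309, 246 and 281 (-0.35, 0.0662), and MIR155HG, host of miR-155, had 4, 0, 9 and 8 (1.92, 0.278). These 3, like SNHG5 above, were chosen after their values were seen. Over all 74 hosts, 36 had fewer than 50 counts in each library, and 14 had at most 3 counts in each group. MIR3659HG had 4 counts in PBS and 0 in M5, at least 1.46-fold lower against a floor of 3 counts over the group, and MIR5689HG had 0 and 5, at least 1.52-fold higher.

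**Figure D3:**
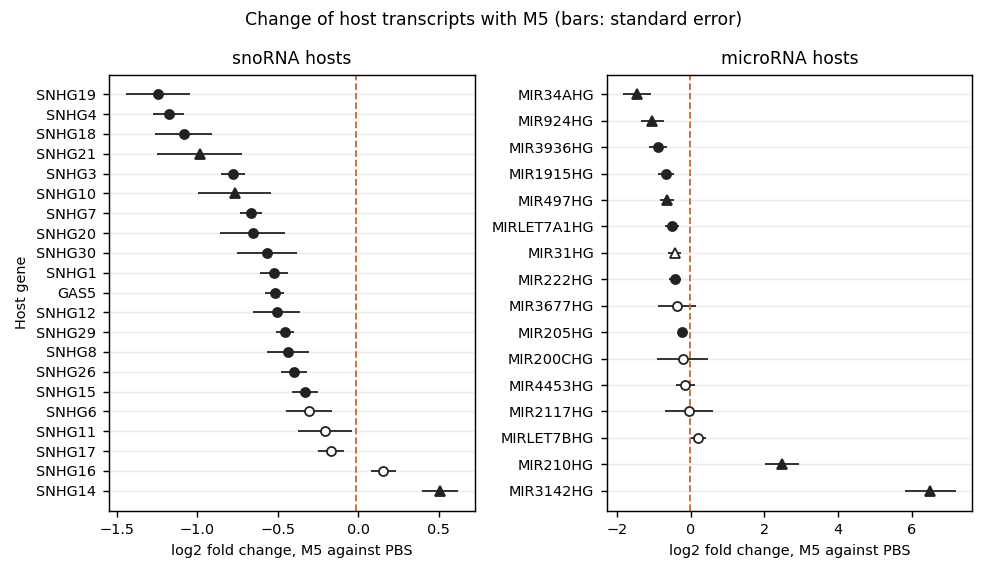
Log2 fold change of M5 over PBS with its standard error for snoRNA hosts (left) and microRNA hosts (right), each panel with its own axis. Filled symbols passed edgeR's test, triangles mark hosts fitted without a filter on level, the dashed line is the median of all tested genes (-0.01), and the value of MIR3142HG depends on the prior count because PBS held 1 count.

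Other long non-coding RNAs give the nearest comparison. Of 597 such genes tested, 121 (20.3%) fell and 67 (11.2%) rose, and the median change was -0.19 on the log2 scale. Against these shares stand 14 of 18 snoRNA hosts (77.8%) and 5 of 10 microRNA hosts (50%) that fell, with 0 that rose in either class. Of those tested, 5 microRNA hosts (2 of them called) and 1 snoRNA host (called) reached the minimum only through the PBS mean. A lower M5 level was thus built in for these members, and how many of the 597 were so placed was not counted. In either direction, 409 of the 597 were not called, against 4 of the 18 snoRNA hosts and 5 of the 10 microRNA hosts. Calls depend on read counts, and the 597 were not matched to the hosts by level, so the shares are not on equal terms. The difference between the classes was not tested.

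**Figure D4:**
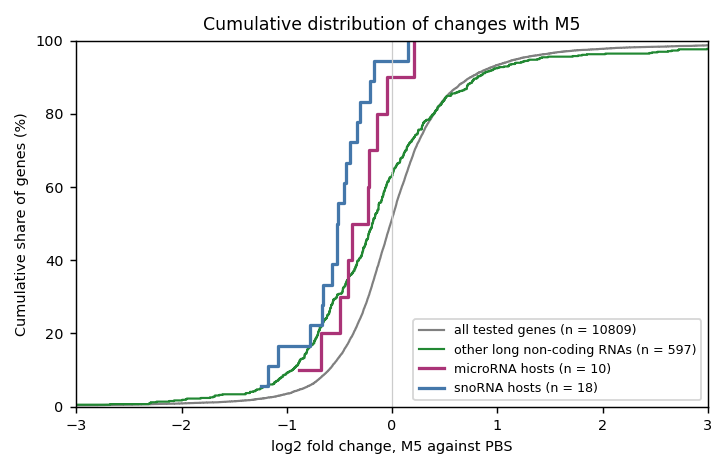
Cumulative share of genes (percent) by log2 fold change of M5 over PBS for the 18 tested snoRNA hosts, the 10 tested microRNA hosts, 597 other long non-coding RNAs and all 10809 tested genes. The snoRNA hosts lie left of the other curves around their median of -0.52, and microRNA hosts reach theirs at -0.30.

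Among the 18 tested snoRNA hosts, shorter genes tended to have larger falls. The log2 fold change and the log2 gene length in the files had a Pearson's r of 0.57 and a Spearman's rho of 0.47 across genes, which share the same 4 libraries. Against log2 mean FPKM r was -0.09 and rho -0.18, and against the number of annotated snoRNAs inside, r was 0.26 and rho 0.21. Small RNAs whose annotated name begins with RF were not counted, and GAS5 entered with 0, so these numbers of snoRNAs may be incomplete. Among the 10 microRNA hosts, r with log2 length was -0.25 and rho -0.28. Genes are not independent replicates, so these are given without a test, and gene length also sets how many reads a transcript yields.

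Several hosts start close to a coding gene, and the pairs did not always move together. SNHG18 starts 125 bp from SEMA5A, a semaphorin on the opposite strand that was at 4.82, 5.21, 1.49 and 1.42 FPKM and fell by the larger estimate (log2 fold change -1.63, SE 0.09, against -1.09 for SNHG18). SNHG3 starts 37 bp from RCC1, the exchange factor of Ran, on the same strand, and both fell (RCC1 -0.55, SE 0.06). MIR3936HG and the carnitine transporter gene SLC22A5, 164 bp apart on opposite strands, both fell (SLC22A5 -0.54, SE 0.10). SNHG19 and TRAF7 (340 bp), SNHG10 and GLRX5 (1369 bp) and GAS5 and ZBTB37 (800 bp) also fell in pairs, at -0.26 for TRAF7, -0.39 for GLRX5 and -0.51 for ZBTB37, the last in the fit without a filter. Over all tested genes 27.1% were lower (9.99% in the fit without a filter), and whether neighbours of hosts fell more often was not tested. SNHG1 went down while SLC3A2, an amino acid transporter subunit 188 bp away, was at 196, 190, 183 and 174 FPKM (0.04, SE 0.05, edgeR adjusted p = 0.543). SNHG20 fell while SEC14L1, 2033 bp away on the same strand, rose (0.41, SE 0.06, edgeR adjusted p = 1.44e-05). In GENCODE 29, exons of the neighbour cover 20.1% of SNHG10, 7.56% of SNHG20 and 5.92% of SNHG3. Exons of SLC22A5 and SLC22A4 cover 10.1% of MIR3936HG. Reads from shared stretches cannot be assigned to one gene of a pair, as the library kit does not mark strand and the counting of overlapping reads is not stated. No exons of SNHG18, SNHG19 or SNHG1 were covered. The neighbouring entries of SNHG4 and MIR497HG were barely detected. MATR3, by its entry ENSG00000280987, was at 0.0298, 0.00980, 0 and 0.0159 FPKM, and BCL6B was at 0, 0, 0.0242 and 0.0117 FPKM. Neither was called without a filter (edgeR adjusted p = 0.724 and 0.466). The values are of that MATR3 entry alone, and the level of the gene from any other entry was not examined. The uncalled hosts MIR3677HG and MIR4453HG have uncalled neighbours, RNPS1 (-0.09) and FBXW7 (-0.18).

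**Figure D5:**
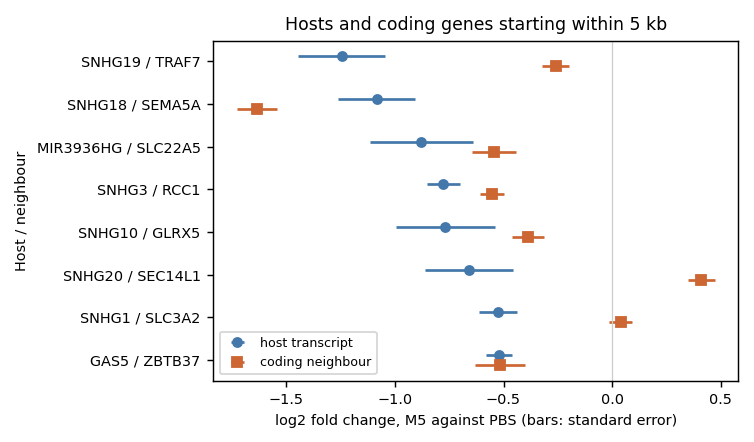
Log2 fold change of M5 over PBS with its standard error for 8 called hosts (circles) and the coding gene that starts within 5 kb (squares). MIR497HG and SNHG4, whose neighbouring entries had almost no counts, are not drawn. SNHG1 and SNHG20 fell beside a neighbour at 0.04 and 0.41, and in the other 6 pairs both values were negative. Of all 10809 tested genes, 5538 had a negative value.

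Of 14 listed proteins of small nucleolar ribonucleoproteins and their assembly, 12 were tested, 9 fell (75%, beside 27.1% of all tested genes) and 0 rose, and their median change was -0.24 on the log2 scale. The largest falls were in NHP2, a core protein of box H/ACA particles, at 24.3, 28.3, 18.0 and 14.1 FPKM (-0.56, SE 0.12, edgeR adjusted p = 0.00042), NUFIP1 (-0.51, SE 0.10) and NAF1 (-0.39, SE 0.12), both assembly factors. NOP56, NOLC1 and GAR1 were not called (edgeR adjusted p = 0.799, 0.253 and 0.303), FBL and NOP10 were below the minimum, and the count of 9 dropped to 4 without PBS replicate 2. Of 26 coding genes known to carry snoRNAs in their introns, mostly ribosomal protein genes, 24 were tested, 12 fell (50%) and 0 rose, with a median of -0.16. EEF1B2 (-0.84, SE 0.28), RPS2 (-0.78, SE 0.24) and RPL12 (-0.32, SE 0.05) had the largest falls. RPL12 was at 321, 329, 234 and 234 FPKM, whereas RPS2 had only 86, 76, 46 and 57 counts and EEF1B2 62, 108, 45 and 59. How multiply aligned or overlapping reads were counted is not stated in the sources, so whether counts this low measure the full transcripts of RPS2 and EEF1B2 is unknown. Under scaling by library totals 20 of the 24 fell, where 4492 of all 10809 tested genes were lower and 2183 higher.

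The nonsense-mediated decay factors had no common direction. With scaling by library totals 6 of the 10 tested fell and 0 rose, where 4492 of all 10809 tested genes were lower. With TMM scaling 3 fell (30%, near the 27.1% of all tested genes), among them UPF3B (-0.47, SE 0.10) and SMG9 (-0.31, SE 0.12). Another 3 rose (30%, beside 28.8% of all tested genes), among them SMG8 (0.28, SE 0.10). The count of 6 calls became 1 without PBS replicate 2.

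Of 13 processing and effector proteins of the microRNA pathway, 11 were tested, 3 fell (27.3%) and 1 rose (9.09%), a share of falls near the 27.1% of all tested genes. The nuclear pair that releases hairpins fell slightly, DGCR8 by 0.29 (SE 0.07) and DROSHA by 0.27 (SE 0.06) on the log2 scale, while AGO4, an effector, rose (0.57, SE 0.14, edgeR adjusted p = 0.00178). The count of 4 calls became 2 without PBS replicate 1. Of 18 coding genes that carry microRNAs, 8 fell (44.4%) and 3 rose (16.7%), beside 27.1% and 28.8% of all tested genes. PANK1, host of miR-107, fell by 1.10 (SE 0.18), CTDSPL, host of miR-26a-1, by 1.07 (SE 0.07) and the replication helicase gene MCM7, host of the miR-106b cluster, by 0.65 (SE 0.05), all on the log2 scale. TP63, the transcription factor of basal keratinocytes and host of miR-944, rose by 0.69 (SE 0.06).

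The libraries carried the markers of their label. Keratinocyte markers, all 10 of which were tested, summed to 11485 and 11327 CPM in PBS and to 17365 and 16024 CPM in M5. Of these, 8 were higher (80%) and 2 lower (20%), beside 28.8% and 27.1% of all tested genes. The 2 lower ones were KRT5 (log2 fold change -0.96, SE 0.05) and PKP1 (-0.26, SE 0.05). Summed markers of other cell types ranged from 4.19 to 6.30 CPM for fibroblasts (4 of 6 with a row), 0.169 to 0.430 for leukocytes (2 of 6), 1.91 to 3.98 for endothelium (3 of 4) and 1.49 to 2.64 for melanocytes (3 of 4), with both M5 libraries above both PBS libraries for the last 2 lists. Endothelial markers were at 2.12 and 1.91 CPM in PBS and 2.87 and 3.98 in M5, and melanocyte markers at 1.69 and 1.49 and at 2.64 and 1.94. Without a filter, CDH5 rose (counts of 15, 20, 48 and 74, edgeR adjusted p = 0.00310) and VWF fell (19, 11, 3 and 0, edgeR adjusted p = 0.0223). Of those with a row, DCN, PDGFRA and DCT had 0 counts in both PBS libraries and PECAM1 had 0 in both M5 libraries. The part of these marker changes in the change of the hosts was not tested.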

How the data were processed

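HISAT2, HTSeq 0.13.5 and the build GRCh38 are named, per the submitters' processing notes. For the annotation release, the strand setting and multiply aligned reads, the answer is not given in the sources used here. Each deposited file held a read count and an FPKM value per gene made by the authors, per the file headers. The members and gene lists were chosen with earlier results of these data known. Counts were tested with edgeR 4.0.16 (quasi-likelihood, TMM, two-sided, R 4.3.3) where the mean FPKM reached 1, with Benjamini-Hochberg adjustment over all 10809. Members below this minimum were taken from the fit without a filter. Alternatives were library totals, median-of-ratios factors, DESeq2 1.42.0, limma 3.58.1 on log2(FPKM + 1) and log2(FPKM + 0.1), a minimum mean FPKM of 5, no filter, a replicate block, each library left out (the lone library of its group is then assumed to vary like the others) and an adjusted p of 0.01. The edgeR step was tested on simulated data. Replicates varied beyond sampling noise (median chi-square 0.999 in PBS and 1.75 in M5, against 0.455 from sampling alone). In a single library 3 counts are 0.161 to 0.181 CPM, and floors and intervals cover counting error only.

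Named genes were all tested members, untested members called without the filter, GAS5 and MIR31HG, up to 3 called members of each list with the largest change, and coding neighbours of called hosts. Other genes in the text, such as MCM7, whose change was smaller in size than that of TP63, were named outside this rule. Positions came from GENCODE 29, which holds 25496 (93.2%) of the gene identifiers and 73 of the 74 members, and 11 members are longer in the files than in that release. Shares of exons covered by other genes were taken on the GENCODE 29 exons and are not shares of the length counted. MIRLET7A1HG, MIR497HG, SNHG10 and SNHG21 are among the longer members. Sequences came from RefSeq (GRCh38.p14), with a promoter for 65 members. A further 6 genes with a hyphen in such a symbol fell outside the rule.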

Additional observations from a re-analysis of the deposited data

How the results depend on the processing

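Of 410 alternative values for the named hosts, 342 kept their direction and side of the threshold, 54 lost the call, 8 gained one and 6 changed sign. The 14 snoRNA hosts called became 9 of 11 with a mean FPKM of at least 5, 16 with library totals, and 12 to 14 with 1 library left out. The 5 microRNA hosts called became 2 in DESeq2, 2 at an adjusted p of 0.01, 1 with a mean FPKM of at least 5, 8 with no filter (2 higher and 6 lower, of 49) and 3 to 4 with 1 library left out. The median of snoRNA hosts moved to -0.67 with library totals, -0.66 in limma on log2(FPKM + 0.1) and -0.56 to -0.45 with 1 library left out, and that of microRNA hosts to -0.52 in limma on log2(FPKM + 0.1). Library totals moved the median of all genes from -0.01 to -0.17, and the share of calls that were higher from 51.5% to 32.7%. Genes called lower then numbered 4492 of 10809, against 2929 with TMM scaling. They numbered 4122 and 4098 in limma on log2(FPKM + 1) and log2(FPKM + 0.1), and 2094 of 6552 with a mean FPKM of at least 5. Coding snoRNA hosts called numbered 20 with library totals and 19 in limma at either pseudocount (8 to 16 with 1 library left out). The decay factors called numbered 2 in DESeq2, 3 with no filter, 2 at an adjusted p of 0.01 and 1 to 6 with 1 library left out. With 1 library left out, snoRNP proteins called numbered 4 to 9 and microRNA pathway proteins 2 to 6. Signs turned for 4 uncalled hosts with 1 library left out: MIR200CHG ranged from -1.16 (without M5 replicate 2) to 0.34 (without M5 replicate 1) and was 0.05 without PBS replicate 2, MIR2117HG from -0.57 (without PBS replicate 1) to 0.78 (without PBS replicate 2) and was 0.19 without M5 replicate 2, MIR3677HG from -1.54 (without M5 replicate 1) to 0.28 (without M5 replicate 2), and MIR4453HG from -0.33 (without M5 replicate 2) to 0.021 (without M5 replicate 1). Replicate numbers gave no pairing (correlation of deviations -0.02). A replicate block gave 14 snoRNA hosts, 5 microRNA hosts and 6093 genes in all. The cause of these moves was not tested. Depth limits the 36 hosts below 50 counts in each library, and 2 libraries a group limit every standard error.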
